A study of Caenorhabditis elegans with 58 samples.

Results

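mir-49 and mir-83 are the microRNAs (miRNAs) of Caenorhabditis elegans that belong to the miR-29 family. They were chosen by name: every entry of the count table whose name, without its arm ending, is mir-49 or mir-83 was taken. This gave 2 of the 138 hairpins in the table and 4 of its 276 arms, namely mir-49_3p, mir-49_5p*, mir-83_3p and mir-83_5p*. No measured value entered this rule on names, but earlier results of these data were known when it was set. In both hairpins the 5p arm carries the asterisk of a star arm in the annotation, and the 3p arm is taken as the guide.

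A miRNA hairpin is cut into a short duplex, of which an Argonaute protein keeps the guide strand and discards the star strand. The guide then pairs through its seed, a short stretch near its 5′ end, with messenger RNAs that share the complementary site. miR-29 miRNAs of mammals are best known for restraining collagens and other extracellular matrix genes. In the worm, mir-83 acts together with mir-34 in the migration of the distal tip cells that shape the gonad, and it has been linked to autophagy in ageing animals. ALG-1 and ALG-2 are the main Argonautes that carry miRNAs in the worm, and the AEDH alleles change a residue of their catalytic centre, so that the protein can no longer slice.

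Small RNA was sequenced from whole hermaphrodites in 58 libraries of 15 groups and 3 experiments. Experiment 1 held wild type, the strain N2, and MCJ275, which carries alg-2(cdb155) on chromosome II and alg-1(cdb153) on chromosome X. The genotype of MCJ275, alg-1(AEDH) with alg-2(AEDH), is called double AEDH below. Both were sampled as young adults (4 libraries each), L4 larvae (3 each) and embryos (4 each). The labels name all embryo libraries of the series mixed embryos. Experiment 2 held 6 genotypes of young adults with 4 libraries each. These were wild type N2, double AEDH (MCJ275), ebax-1(null) (CZ9907, allele tm2321), ebax-1(null) with double AEDH (MCJ354), Y47(mir-243bs_del) (MCJ350, allele cdb188 of Y47H10A.5) and Y47(mir-243bs_del) with double AEDH (MCJ352, allele cdb190). EBAX-1 is the worm counterpart of ZSWIM8, a ubiquitin ligase receptor required for the decay of some miRNAs. The Y47 alleles remove a site for mir-243, so neither they nor any other allele of the series alters a mir-49 or mir-83 gene. Experiment 3 held mixed embryos of wild type N2, alg-1(AEDH) (MCJ277) and alg-2(AEDH) (MCJ288), with 4 libraries each. All groups are whole animals, so fewer cells of a type and less RNA per cell cannot be told apart. Young adults came from 44 h of growth at 25 °C, L4 larvae from 48 h at 20 °C and embryos from 20 °C as well, so stage and growth temperature cannot be told apart. Whether replicates are separate cultures is not in the labels, and p-values here measure the spread between libraries, which may be technical.

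Per library, 4806008 to 21076792 counts fell on miRNA arms, of which 231 to 260 were detected. Levels are given as CPM, the counts of an arm scaled to the total of all arms in its library. A floor of 3 counts, given as a reference and not applied as a filter, corresponded to 0.142 to 0.624 CPM. The members were far above it, with 131 counts in the lowest value of any member and library. Reads from amplified libraries without molecular identifiers are not independent molecules, so this floor covers counting error only. Some libraries stood apart in stage markers. Replicate 2 of the embryos of experiment 1 held 164 CPM of lin-4_5p in wild type and 90.4 CPM in double AEDH, against at most 9.67 CPM in the other embryo libraries of that experiment. Replicate 1 of the double AEDH young adults of experiment 1 held 59386 CPM of mir-35_3p, an embryonic miRNA, against 11967 to 29165 CPM in the other 3. In ebax-1(null), replicates 3 and 4 held 47981 and 41168 CPM of mir-35_3p, against 15363 and 14446 CPM in replicates 1 and 2.

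mir-49 lies on the plus strand of chromosome X, at 9989302 to 9989363 in the ce11 build, in a hairpin of 62 bases. Its star arm occupies 9989302 to 9989325 and its guide arm 9989342 to 9989363. The hairpin lies outside protein-coding genes, 4362 bases above F19C6.5 and 1884 bases below grk-1, both on the minus strand. mir-83 lies on the plus strand of chromosome IV, at 7841647 to 7841712, in a hairpin of 66 bases. Its star arm occupies 7841647 to 7841669 and its guide arm 7841691 to 7841712. The first 5 bases of this hairpin overlap the end of C06A6.9, a non-coding RNA gene on the same strand that spans 7841504 to 7841651. The nearest protein-coding genes are C06A6.7, 3120 bases away, and C06A6.2, 4909 bases away. The closest other hairpins are mir-251 for mir-49, at 1015382 bases, and mir-1820 for mir-83, at 74098 bases, so neither member sits in a miRNA cluster.

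The guides of the pair followed opposite courses over the stages of wild type. mir-49_3p was 6.88-fold higher in embryos than in young adults, while mir-83_3p was 2.95-fold lower. The mir-49 guide stood at 599, 584, 573 and 637 CPM in the 4 young adult libraries, at 792, 801 and 819 CPM in L4 larvae and at 3066, 3435, 3381 and 3691 CPM in embryos. The mir-83 guide stood at 178, 101, 105 and 145 CPM in young adults, at 117, 139 and 124 CPM in L4 larvae and at 32.8, 39.1, 34.8 and 39.6 CPM in embryos. Every embryo library thus lay above all others for the mir-49 guide and below all others for the mir-83 guide. L4 larvae and young adults overlapped for mir-83 and not for mir-49.

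**Figure D1:**
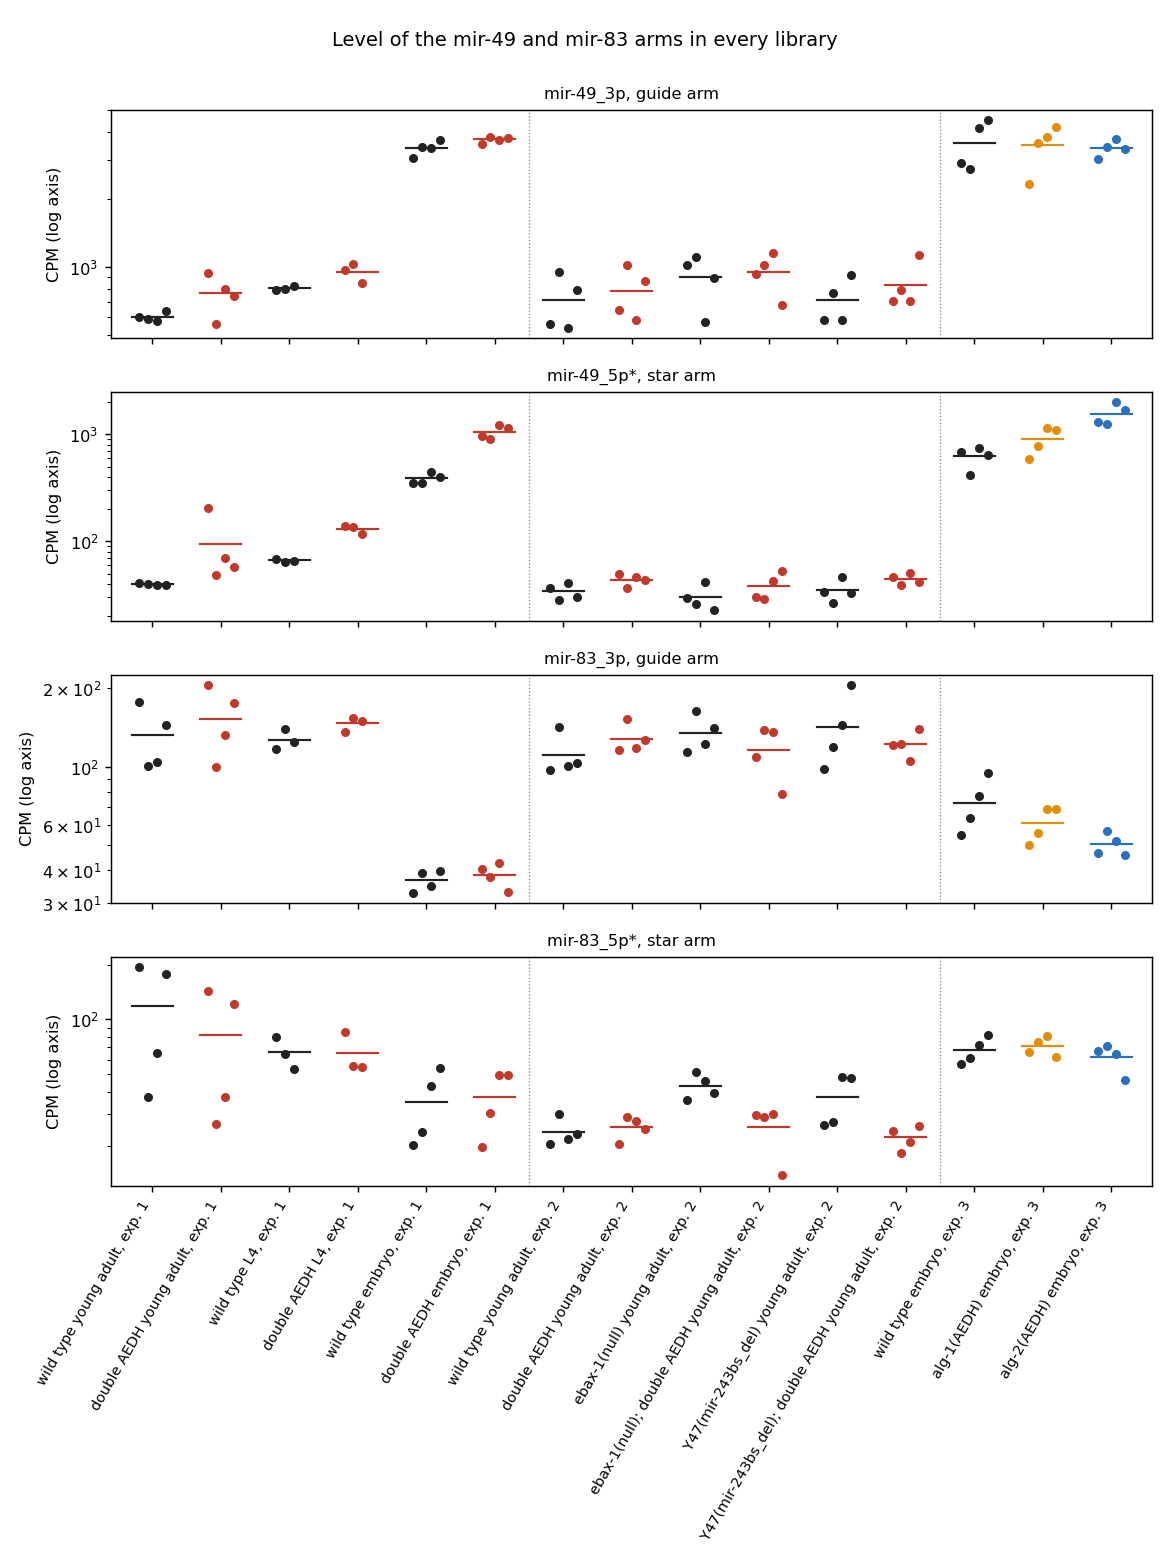
Level of each arm of mir-49 and mir-83 in every library, in CPM on a log axis, for the 15 groups; points are libraries, lines are group means, black is no AEDH allele, red double AEDH, orange alg-1(AEDH) and blue alg-2(AEDH), and dotted lines separate the experiments. The embryo groups lie highest for both mir-49 arms, with mir-49_3p means of 3385 to 3701 CPM against 598 to 951 CPM elsewhere, and lowest for mir-83_3p.

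Tested with edgeR's quasi-likelihood test and Benjamini-Hochberg adjustment, mir-49_3p rose from young adult to embryo by 2.78 on the log2 scale (95% interval 2.53 to 3.04, adjusted p = 2.78e-14) and mir-83_3p fell by 1.56 (interval -1.96 to -1.16, adjusted p = 2.53e-07). The stages differ in most miRNAs: 81.9% of the 238 arms tested passed the threshold of 0.05 in this comparison and 77.3% did not overlap between the groups. All 4 member arms are among those called, a share near that background. Against L4 larvae the embryo values were 2.48 (adjusted p = 1.06e-12) for mir-49_3p and -1.39 (adjusted p = 2.52e-06) for mir-83_3p, in a comparison where edgeR called 79.4% of arms and 79.8% did not overlap. Between L4 and young adult, where 42.4% of arms were called and 57.6% did not overlap, mir-49_3p was 0.31 higher in L4 (interval 0.05 to 0.56), an edgeR adjusted p of 0.0507 that misses the threshold although the groups do not overlap, and DESeq2 called it (0.34, adjusted p = 0.0151). mir-83_3p differed there by -0.17 (adjusted p = 0.532). Between embryo and young adult the median over all arms was -0.13, and 0.78 when libraries were scaled to the added spike-in RNAs instead. On that scale mir-49_3p stood at 3.69 and mir-83_3p at -0.70 with an edgeR adjusted p of 0.0615.

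Among all guide arms, the change of mir-49_3p from young adult to embryo ranked 15 of 134 from the top. That of mir-83_3p ranked 44 of 134 from the lowest. Of these guides 48 were called higher in embryos and 64 lower, with a median of -0.23. The checks of stage behaved in the same fit as follows. All 7 guides of the mir-35 to mir-41 family, which is abundant in embryos, were higher in embryos than in young adults, with a median log2 difference of 2.98. let-7_5p and lin-4_5p, the heterochronic miRNAs of later larvae, were at -7.80 and -4.90. The tissue markers moved less, with -0.75 for the muscle miRNA mir-1_3p (edgeR adjusted p = 1.26e-06) and 1.02 for the neuronal miRNA mir-124_3p (edgeR adjusted p = 6.23e-06). The 4 embryo libraries of wild type held 219923 CPM of mir-35_3p in replicate 2 and 197631 to 233598 CPM over all 4, so replicate 2 did not stand apart in the embryonic miRNA. With each of the 8 libraries left out in turn, replicate 2 among them, the embryo minus young adult difference ran from 2.75 to 2.85 for mir-49_3p and from -1.65 to -1.41 for mir-83_3p, and all 8 fits called both.

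The opposite courses change the make-up of the family. Summed, the guides of mir-49 and mir-83 held 730.3 ± 56.6 CPM in wild-type young adults (SD, n = 4), 931 ± 18.8 CPM in L4 larvae (n = 3) and 3429.8 ± 259.8 CPM in embryos (n = 4). mir-83 supplied 17.9 ± 3.71% of this sum in young adults, 13.6 ± 1.04% in L4 larvae and 1.07 ± 0.0445% in embryos. There were thus 4.76 ± 1.10 reads of mir-49_3p per read of mir-83_3p in young adults and 92.9 ± 3.86 in embryos. The embryos of experiment 3 had a ratio of 49.4 ± 5.10 in wild type and a mir-83 share of 2.00 ± 0.211%. These are ratios of reads. The ligation steps of a small RNA library do not capture all sequences equally, so the change of a ratio between stages is better determined than its size.

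The star arms add a further contrast. The mir-49 star stood at 41.1, 40.2, 38.8 and 39.1 CPM in wild-type young adults, at 68.9, 64.5 and 66.0 CPM in L4 larvae and at 354, 354, 450.0 and 398 CPM in embryos. It thus had the same order of stages as its guide, with no overlap between them, and the embryo level was 11.8-fold the young adult level (log2 3.57, interval 2.94 to 4.20, edgeR adjusted p = 1.16e-09). This difference ran from 3.48 to 3.64 with each library left out in turn. Between L4 and young adult the difference of 0.62 did not pass edgeR's test (adjusted p = 0.0991). The star share of the hairpin, the star reads as a percentage of both arms, went from 6.24 ± 0.315% in young adults to 7.64 ± 0.319% in L4 larvae and 10.3 ± 1.05% in embryos. From young adult to embryo the log2 ratio of star to guide rose by 0.78 (interval 0.27 to 1.29, limma adjusted p = 0.00925 over all hairpins), a comparison in which limma called 60.2% of hairpins. Against L4 larvae the ratio in embryos was 0.47 higher (limma adjusted p = 0.142, with 46.2% of hairpins called), and between L4 and young adult it differed by 0.31 (limma adjusted p = 0.437, with 26.9% called). Medians over the 93 hairpins tested were 0.41 (embryo against young adult), 0.47 (embryo against L4) and -0.12 (L4 against young adult). Among them the mir-49 ratio ranked 38, 47 and 28 from the top.

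The mir-83 star was a different kind of arm. In wild-type young adults it stood at 193, 37.1, 65.2 and 177 CPM, so the libraries of 1 group spanned a wide range, and replicates 1 and 4 were high. L4 larvae held 80.1, 64.4 and 53.5 CPM and embryos 20.2, 24.0, 43.0 and 53.6 CPM. Embryos and young adults overlap, although edgeR called the arm lower in embryos (log2 -1.46, interval -2.49 to -0.42, adjusted p = 0.0104). With each library left out in turn the value ran from -1.74 to -1.14, called by edgeR each time. With spike-in scaling this value was -0.66 with an edgeR adjusted p of 0.322. The star share of mir-83 was 43.1 ± 13.0% in young adults, 34.1 ± 5.67% in L4 larvae and 47.2 ± 10.6% in embryos, several times that of mir-49. In some libraries the arm marked as star held more reads than the guide, at 52.1 and 55.1% in young adults and 55.3 and 57.5% in embryos. The stages did not separate in the star-to-guide ratio of mir-83 (log2 0.26, limma adjusted p = 0.628 for embryo against young adult).

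Ordered by group mean over the whole series, mir-49_3p ran from 598 CPM in wild-type young adults of experiment 1 to 3701 CPM in double AEDH embryos. Neighbours in that order lay within the larger of their SDs, with 1 exception: the step from 951 ± 92.5 CPM in double AEDH L4 larvae to 3385 ± 273 CPM in alg-2(AEDH) embryos. mir-83_3p ran from 36.6 ± 3.32 CPM in wild-type embryos of experiment 1 to 153 ± 46.9 CPM in double AEDH young adults of experiment 1. Its embryo groups of experiment 1 were separated by more than the SDs from those of experiment 3, which lay at 50.3 ± 5.11, 60.8 ± 9.53 and 72.5 ± 17.4 CPM. Another step led from there to the lowest young adult group, at 111 ± 21.1 CPM. The 10 groups of L4 larvae and young adults, from 111 to 153 CPM, lay within their SDs of each other in the order. For mir-49_5p* the young adults of experiment 2 and the wild-type young adults of experiment 1 came first, from 30.1 ± 8.27 to 44.4 ± 5.23 CPM, within their SDs of each other. Then came wild-type L4 larvae at 66.5 ± 2.26 CPM, double AEDH young adults of experiment 1 at 94.6 ± 73.0 CPM, double AEDH L4 larvae at 131 ± 12.0 CPM and the embryos, from 389 ± 45.7 CPM in wild type of experiment 1 to 1553 ± 349 CPM in alg-2(AEDH). For mir-83_5p* the order did not follow stage: 4 young adult groups of experiment 2 were lowest, from 22.4 ± 3.41 to 25.6 ± 7.86 CPM, and the young adults of experiment 1 were highest, at 82.1 ± 58.9 and 118 ± 78.5 CPM. Differences between experiments were not tested.

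The central comparison of the series asks what the loss of slicing in both Argonautes does to miRNAs. Neither guide passed the test in any stage, whereas the mir-49 star rose 1.97-fold in L4 larvae and 2.66-fold in embryos. In embryos, double AEDH held 966, 905, 1226 and 1146 CPM of mir-49_5p*, against 354, 354, 450.0 and 398 CPM in wild type. All 4 mutant libraries lay above all 4 wild-type libraries, and the smallest mutant value was about as far above the largest wild-type value as the latter was above 0. The log2 difference was 1.41 (interval 1.16 to 1.66, edgeR adjusted p = 8.7e-05). In each of the 4 pairs of same-numbered libraries it lay between 1.35 and 1.52. With each of the 8 libraries left out in turn, replicate 2 of either genotype among them, it ran from 1.35 to 1.47 and was called by edgeR each time.

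Meanwhile the mir-49 guide stood at 3548, 3790.0, 3696 and 3769 CPM in the mutant embryos, which differs from wild type by 0.10 (interval -0.07 to 0.27, edgeR adjusted p = 0.581). The groups overlap. The star share thus went from 10.3 ± 1.05% to 22.2 ± 2.43%, with 21.4, 19.3, 24.9 and 23.3% in the 4 mutant libraries. The log2 ratio of star to guide differed by 1.32 (interval 0.87 to 1.76, limma adjusted p = 0.000959).

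Star arms rose widely in this comparison. edgeR called 11.3% of the 212 arms tested and 13.2% did not overlap between the genotypes. It called 62 arms with the replicate number as a block and 24 without. Of 85 star arms tested, 16 were called higher and 0 lower, with a median of 0.44, against 1 higher and 7 lower of 127 guides with a median of -0.08. The mir-49 star ranked 9 of 85 from the top. Of the star-to-guide ratios, 19.8% of hairpins were called, and the mir-49 ratio ranked 14 of 86.

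**Figure D2:**
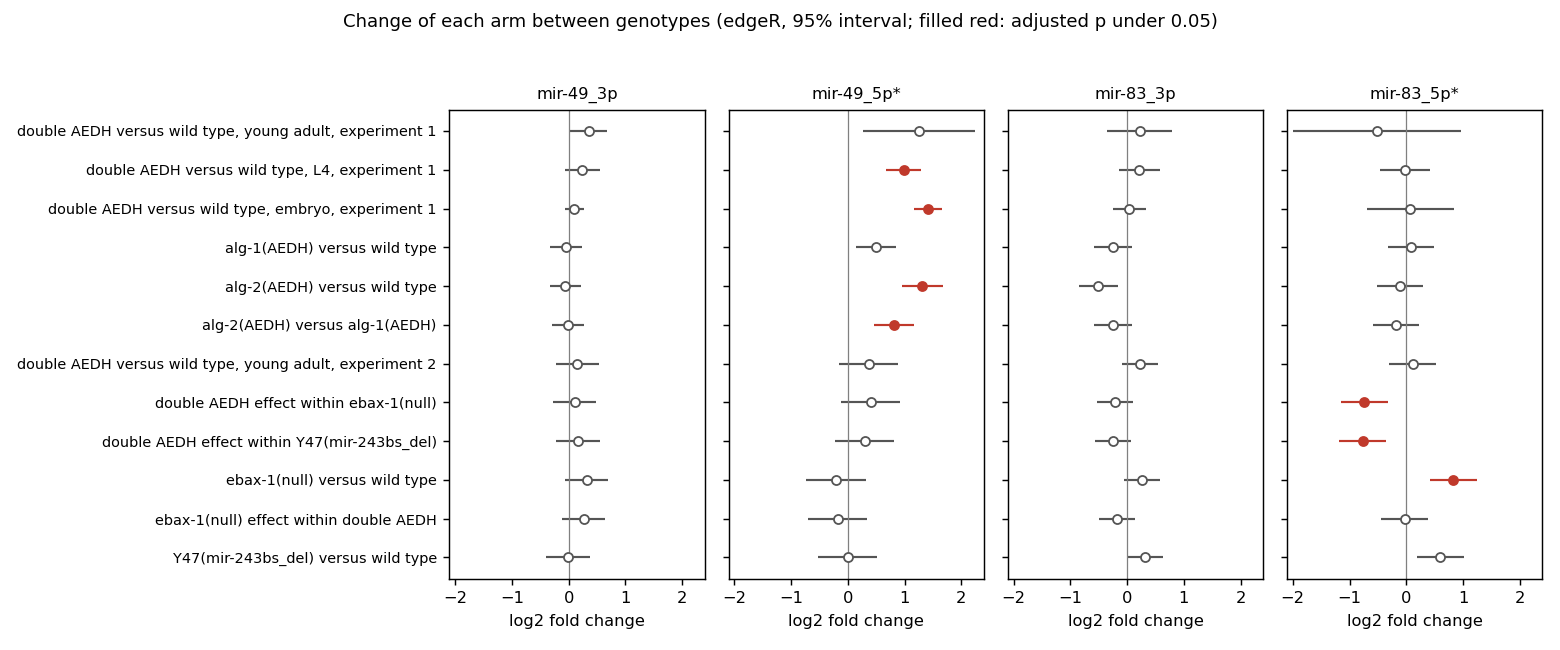
Log2 fold change of each member arm in the 12 comparisons of genotypes, with 95% intervals from edgeR; filled red points have an adjusted p under 0.05. The mir-49 star lies to the right of 0 in double AEDH and alg-2(AEDH) embryos, at 1.41 and 1.31, while the intervals of the mir-49 guide there include 0.

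In L4 larvae the mir-49 star stood at 139, 137 and 117 CPM in double AEDH and at 68.9, 64.5 and 66.0 CPM in wild type, with no overlap. The log2 difference was 0.98 (interval 0.67 to 1.30, edgeR adjusted p = 0.00586), where edgeR called 4.93% of 223 arms, 26 arms with the replicate block and 11 without. Leaving out replicate 1 of double AEDH gave 0.98 with an edgeR adjusted p of 0.0549, and leaving out replicate 2 of wild type gave 0.96 with an edgeR adjusted p of 0.0539, while spike-in scaling gave 0.98 with an edgeR adjusted p of 0.0992. The guide stood at 966, 1035 and 852 CPM against 792, 801 and 819 CPM, also without overlap, but its difference of 0.24 missed the threshold (edgeR adjusted p = 0.472). Here 21.1% of arms did not overlap. The star share rose from 7.64 ± 0.319% to 12.1 ± 0.464%. The log2 ratio of star to guide differed by 0.74 (interval 0.25 to 1.23, limma adjusted p = 0.0548), and 0.0259 with the replicate block, a comparison in which 11% of hairpins were called without the block.

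In young adults of experiment 1 the mir-49 star stood at 203, 48.7, 69.4 and 57.1 CPM in double AEDH, against 41.1, 40.2, 38.8 and 39.1 CPM in wild type. The groups do not overlap, yet replicate 1 of the mutant was far above the next library. The log2 difference of 1.25 had a wide interval (0.26 to 2.24) and did not pass edgeR's test (adjusted p = 0.24). Without that library it was 0.51 (interval 0.15 to 0.86, edgeR adjusted p = 0.133). edgeR called 1.36% of 220 arms there, 14 arms with the replicate block and 3 without, and 10.5% of arms did not overlap. The library is the one with 59386 CPM of the embryonic mir-35_3p. It also held 768 CPM of mir-34_5p*, and its star share of mir-49, 17.8%, lay between those of the other young adults, 7.10 to 8.01%, and of the mutant embryos. The part of this library's content in its mir-49 value was not tested.

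In the young adults of experiment 2 the mir-49 star stood at 49.2, 36.6, 46.6 and 43.4 CPM in double AEDH and at 36.7, 28.6, 40.9 and 30.1 CPM in wild type. The groups overlap, and the difference of 0.37 (interval -0.15 to 0.89) did not pass edgeR's test (adjusted p = 0.522), in a comparison where 7.96% of arms were called and 15.5% did not overlap. Within same-numbered libraries, which vary together here, the mutant was higher in 4 of 4 pairs, by 0.19 to 0.53. The ratios of mir-49 and mir-83 differed by 0.23 and -0.13 there (limma adjusted p = 0.761 and 0.716), where 9.78% of hairpins were called. Because the mutant effect was called in embryos and L4 larvae and not in young adults, the difference between stages was tested itself. It was 0.30 for the mir-49 star between embryo and young adult (interval -0.51 to 1.10, edgeR adjusted p = 1, with 1.26% of arms called) and 0.49 between embryo and L4 (interval -0.38 to 1.35, edgeR adjusted p = 0.837, with 0.42% called). Without replicate 1 of the double AEDH young adults the first was 0.92 with an edgeR adjusted p of 0.00181, and the same difference for the star-to-guide ratio was 0.99 with a limma adjusted p of 0.011. Whether the stages differ in this respect therefore turned on 1 library.

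**Figure D3:**
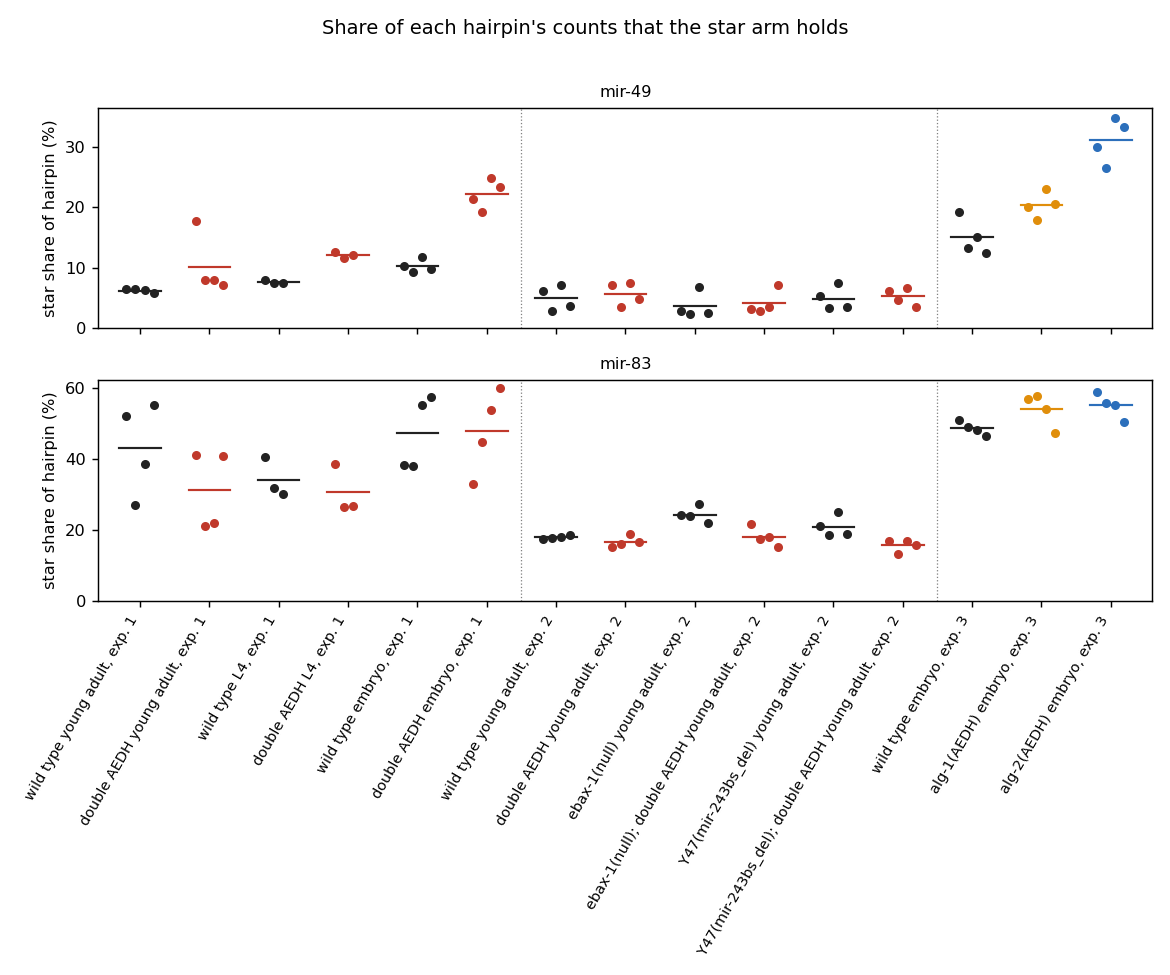
Star share of mir-49 and of mir-83 in every library, in percent of the reads of both arms, for the 15 groups; points are libraries, lines are group means and the axis starts at 0. For mir-49 the double AEDH embryos lie above their wild type, with means of 22.2% against 10.3% in experiment 1. In experiment 3, alg-2(AEDH) lies above wild type, at 31.2% against 15.1%, and alg-1(AEDH) overlaps wild type.

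mir-83 gave no such picture. Its guide stood at 40.4, 37.9, 42.5 and 33.1 CPM in double AEDH embryos, which overlaps wild type (log2 0.04, interval -0.25 to 0.34, edgeR adjusted p = 0.895). Its star stood at 19.9, 30.5, 49.2 and 49.4 CPM there, again overlapping wild type (0.07, interval -0.70 to 0.83, edgeR adjusted p = 0.946). In both genotypes the star was low in replicates 1 and 2 and high in replicates 3 and 4, and the star share ran from 33.0 to 59.9% in the mutant and from 38.0 to 57.5% in wild type. In L4 larvae neither arm passed the test, with 136, 154 and 150.1 CPM for the guide and 84.8, 55.1 and 54.8 CPM for the star in double AEDH.

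In young adults of experiment 1 the spread of mir-83_5p* was shared between the genotypes. The star stood at 144, 26.6, 37.1 and 121 CPM in double AEDH and at 193, 37.1, 65.2 and 177 CPM in wild type, with replicates 1 and 4 high in both. In every same-numbered pair the mutant library was lower, by 0.43 to 0.81 on the log2 scale. Without the replicate block the difference was -0.51 (interval -1.99 to 0.96, edgeR adjusted p = 0.843), and with it -0.56 (edgeR adjusted p = 0.0383). The star-to-guide ratio of mir-83 was -0.77 without the block (limma adjusted p = 0.453) and -0.77 with it (limma adjusted p = 0.0252), where 6.67% of hairpins were called without it, and it was below wild type in 4 of 4 pairs. Without the block these values moved widely with 1 library left out, from -0.99 to -0.20 for the star and from -1.11 to -0.53 for the ratio, and no such fit called either. Each removal breaks a same-numbered pair, and none was made with the block. These ranges therefore do not show how stable the paired difference is. The star was farthest from 0, at -0.99, without replicate 1 of double AEDH, the library high in mir-35_3p, and nearest, at -0.20, without replicate 1 of wild type. Here the star of mir-83 moved the other way from that of mir-49, which was higher in 4 of 4 pairs. In experiment 2 the genotypes overlapped for this arm: the star stood at 20.5, 29.0, 27.5 and 24.9 CPM in double AEDH and at 20.5, 30.3, 22.0 and 23.3 CPM in wild type (0.11, edgeR adjusted p = 0.828).

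The single mutants of experiment 3 ask which of the Argonautes carries the effect in embryos. The mir-49 star was 2.48-fold higher in alg-2(AEDH) than in wild type, while the difference in alg-1(AEDH) was smaller and missed the threshold. Wild type held 687, 421, 747 and 648 CPM, alg-1(AEDH) 586, 775, 1140.4 and 1094 CPM and alg-2(AEDH) 1302, 1239.9, 1987 and 1683 CPM. Every alg-2(AEDH) library lay above every library of both other genotypes, whereas alg-1(AEDH) overlapped wild type. The log2 difference from wild type was 1.31 in alg-2(AEDH) (interval 0.96 to 1.67, edgeR adjusted p = 0.000179) and 0.49 in alg-1(AEDH) (interval 0.14 to 0.84, edgeR adjusted p = 0.306). Both are measured against the same 4 wild-type libraries.

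The direct comparison of the single mutants put the mir-49 star 1.76-fold higher in alg-2(AEDH) than in alg-1(AEDH) (log2 0.82, interval 0.47 to 1.17, edgeR adjusted p = 0.0138). It was higher in 4 of 4 same-numbered pairs, by 0.62 to 1.15. This call was lost when replicate 2 of alg-1(AEDH) was left out (0.76, edgeR adjusted p = 0.0893), and likewise without replicate 3 of alg-2(AEDH) (0.69, edgeR adjusted p = 0.102) or its replicate 4 (0.76, edgeR adjusted p = 0.0976), and with total counts (0.79, edgeR adjusted p = 0.141). edgeR called few arms in this experiment: 4.06% of 197 arms for alg-2(AEDH) against wild type, 0.508% for alg-1(AEDH) and 2.03% between the mutants, and 12.7%, 3.55% and 9.14% of arms did not overlap. With the replicate block, which same-numbered libraries bear out for alg-1(AEDH), that comparison had 7 arms called higher and 1 lower, and without it 1 in all. The block was fitted together with alg-2(AEDH), where numbers do not pair the libraries with wild type.

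The mir-49 guide did not move with its star. It stood at 2894, 2733, 4174 and 4519 CPM in wild type, 2342, 3562, 3812 and 4223 CPM in alg-1(AEDH) and 3042, 3427, 3707 and 3363 CPM in alg-2(AEDH), with full overlap. Its log2 differences from wild type were -0.04 (edgeR adjusted p = 0.997) and -0.06 (edgeR adjusted p = 0.813). The star share was 15.1 ± 2.96% in wild type, 20.4 ± 2.12% in alg-1(AEDH) and 31.2 ± 3.70% in alg-2(AEDH), where the libraries ran from 26.6 to 34.9%. Relative to wild type the ratio of star to guide was 1.37 higher in alg-2(AEDH) (interval 0.92 to 1.81, limma adjusted p = 0.000184) and 0.54 higher in alg-1(AEDH) (interval 0.10 to 0.99, limma adjusted p = 0.148). Between the mutants it differed by 0.83 (interval 0.38 to 1.27, limma adjusted p = 0.0297), a call that was lost in 4 of the 8 fits that left out 1 library, where adjusted p ran from 0.0174 to 0.077.

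These changes took place among many. limma called the ratio of 41.9% of hairpins for alg-2(AEDH) against wild type, 5.41% for alg-1(AEDH) and 14.9% between the mutants. For alg-2(AEDH), 29 of 74 hairpins had a higher ratio and 2 a lower one, with a median of 0.58, and mir-49 ranked 4 of 74. Among 78 star arms, 7 were called higher and 0 lower with a median of 0.31, and the mir-49 star ranked 2 of 78.

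**Figure D4:**
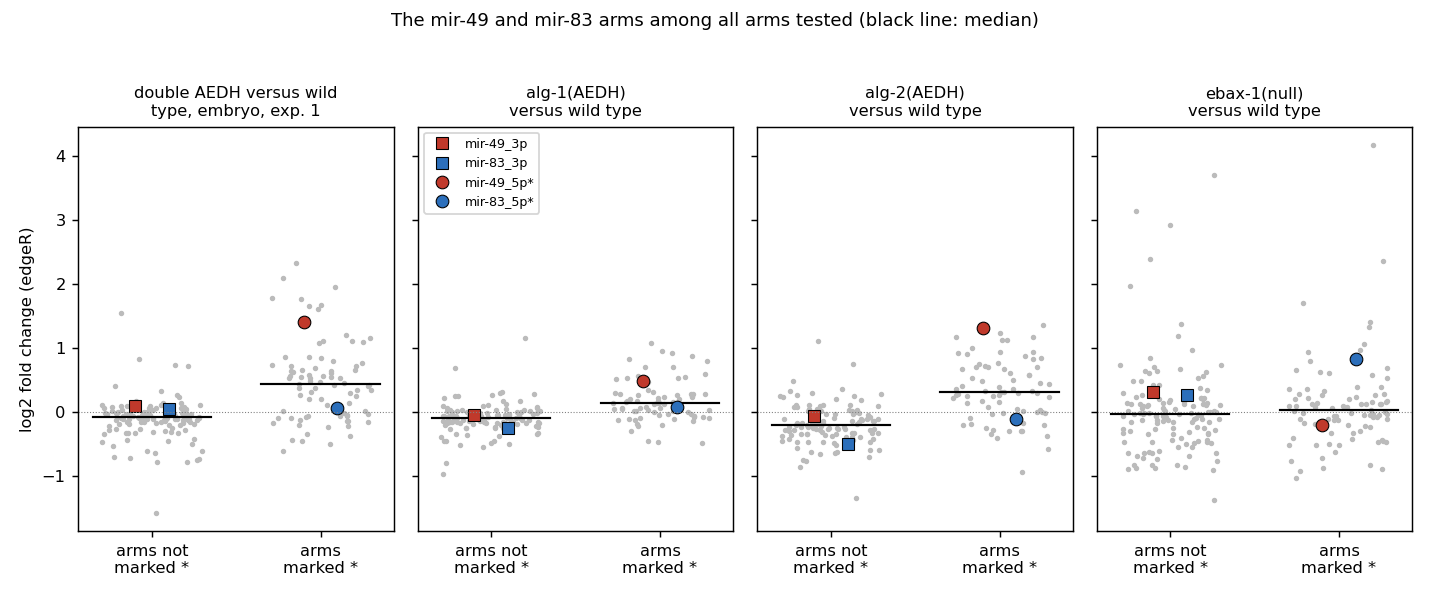
Log2 fold change of all arms tested by edgeR in 4 comparisons, split into arms marked as star and other arms; grey points are other arms, black lines are medians and coloured points are the members. mir-49_5p* ranked 9 of 85 star arms in double AEDH embryos and 2 of 78 in alg-2(AEDH), and mir-83_5p* ranked 9 of 95 in ebax-1(null) young adults.

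For mir-83 in experiment 3, the guide stood at 54.5, 63.7, 77.4 and 94.4 CPM in wild type, 50.1, 55.6, 68.7 and 69.0 CPM in alg-1(AEDH) and 46.7, 56.9, 51.8 and 45.9 CPM in alg-2(AEDH). The groups overlap in every pair of genotypes. The difference of alg-2(AEDH) from wild type, -0.51 (interval -0.84 to -0.17), missed the threshold in edgeR (adjusted p = 0.0853) and passed it in DESeq2 (-0.47, adjusted p = 0.0186). The star of mir-83 did not differ beyond its spread, with 56.6, 60.9, 71.9 and 81.7 CPM in wild type and 66.9, 71.5, 64.0 and 46.4 CPM in alg-2(AEDH) (-0.11, edgeR adjusted p = 0.743). Its star share was 48.6 ± 1.88% in wild type, 54.0 ± 4.70% in alg-1(AEDH) and 55.0 ± 3.56% in alg-2(AEDH), and the ratio did not pass limma's test in either (0.31, adjusted p = 0.357 and 0.37, adjusted p = 0.17). The reads of mir-49_3p per read of mir-83_3p were 49.4 ± 5.10, 56.9 ± 7.62 and 67.6 ± 6.01 in wild type, alg-1(AEDH) and alg-2(AEDH).

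The young adults of experiment 2 combine the AEDH alleles with loss of EBAX-1, a factor of miRNA decay, or of the mir-243 site in Y47H10A.5. The mir-83 star rose 1.77-fold in ebax-1(null), and it was the only member arm that edgeR called there under TMM scaling, the scaling of the main test. It stood at 36.1, 51.1, 45.5 and 39.3 CPM in ebax-1(null) and at 20.5, 30.3, 22.0 and 23.3 CPM in wild type, with no overlap. The log2 difference was 0.83 (interval 0.41 to 1.24, edgeR adjusted p = 0.00402). edgeR called 21.7% of 226 arms in this comparison, and 20.8% of arms did not overlap between the groups. Leaving out each of the 8 libraries in turn gave 0.78 to 0.97, called by edgeR each time, also without replicate 3 or replicate 4 of ebax-1(null). These replicates, both high in mir-35_3p, were not left out together. The arm ranked 9 of 95 star arms, of which 10 were called higher and 9 lower with a median of 0.00.

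The mir-83 guide stood at 114, 164, 122 and 141 CPM in ebax-1(null) and at 96.9, 142, 101 and 103 CPM in wild type, which overlap (0.27, edgeR adjusted p = 0.249). The star share was 24.2 ± 2.21% against 17.8 ± 0.412%, and the ratio was 0.55 higher (interval 0.17 to 0.93), which narrowly missed limma's threshold (adjusted p = 0.0515, with 10.9% of hairpins called). With spike-in scaling the median of all arms in this comparison moved from -0.01 to 0.75. On that scale mir-83_5p* stood at 1.55 (edgeR adjusted p = 0.000547), while mir-49_3p at 1.11 and mir-83_3p at 1.02 also passed the test and lay closer to the median. With this scaling edgeR called 107 of the 226 arms higher and 0 lower.

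The mir-83 star was lower where the ebax-1 and AEDH alleles were combined. ebax-1(null) with double AEDH held 29.8, 28.9, 30.0 and 13.9 CPM, all 4 below every ebax-1(null) library and overlapping both groups without the ebax-1 allele. Within ebax-1(null), double AEDH lowered the arm 1.67-fold (log2 -0.74, interval -1.15 to -0.33, edgeR adjusted p = 0.0178), in a comparison where 11.1% of arms were called and 11.9% did not overlap. With spike-in scaling the call was lost (-0.90, edgeR adjusted p = 0.102). It ranked 4 of 95 star arms from the lowest, among which 14 were called higher and 3 lower. Against double AEDH alone the ebax-1 allele made a difference of -0.02 (interval -0.44 to 0.39, edgeR adjusted p = 0.96), where 15.9% of arms were called, 19% did not overlap and 9.78% of hairpins were called. The difference between these effects was -0.85 (interval -1.44 to -0.26), and it did not pass edgeR's test over all arms (adjusted p = 0.286, with 0.885% of arms called). The star share was 17.9 ± 2.70% with both alterations, and the ratio within ebax-1(null) was -0.55 (interval -0.93 to -0.17, limma adjusted p = 0.0365, with 18.5% of hairpins called), a call lost in 7 of the 8 fits that left out 1 library, with adjusted p of 0.0309 to 0.108.

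A like difference stood between the Y47 genotypes. Y47(mir-243bs_del) held 26.0, 27.2, 48.3 and 47.4 CPM of mir-83_5p*, and with double AEDH it held 24.4, 18.3, 21.0 and 25.9 CPM. The groups do not overlap, and replicates 3 and 4 of Y47(mir-243bs_del) were the high ones. The log2 difference was -0.77 (interval -1.18 to -0.35, edgeR adjusted p = 0.0181), a 1.70-fold lower level, where 7.08% of arms were called and 12.4% did not overlap. The call was lost without replicate 3 (-0.62, edgeR adjusted p = 0.0792) or replicate 4 (-0.69, edgeR adjusted p = 0.0657) of Y47(mir-243bs_del), and without replicate 2 (-0.63, edgeR adjusted p = 0.0919) or replicate 3 (-0.72, edgeR adjusted p = 0.0627) of the combined genotype. It was also lost with total counts (-0.73, edgeR adjusted p = 0.0644) and with spike-in scaling (-0.79, edgeR adjusted p = 0.29). The ratio was -0.51 (interval -0.89 to -0.13, limma adjusted p = 0.0734, with 8.7% of hairpins called), and -0.51 with the replicate block (limma adjusted p = 0.0365). That block was fitted over all genotypes of experiment 2, the ebax-1 groups included, where numbers do not pair the libraries.

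Against wild type, Y47(mir-243bs_del) was 0.60 higher in mir-83_5p* (interval 0.19 to 1.01), which overlaps wild type and did not pass edgeR's test (adjusted p = 0.548). There edgeR and DESeq2 each called 0 of 226 arms, with 18 at an unadjusted p under 0.05 in edgeR, and 3.54% did not overlap. With the Y47 allele within double AEDH both tools again called 0 arms, with 7 at an unadjusted p under 0.05 in edgeR and 1.33% not overlapping. The difference between the AEDH effects with and without the Y47 allele was -0.88 (interval -1.46 to -0.29, edgeR adjusted p = 0.402). The comparisons within ebax-1(null), within Y47(mir-243bs_del) and in the wild-type background use separate libraries, while each comparison with wild type shares the same 4 wild-type libraries.

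mir-49 varied between the libraries of each genotype in experiment 2. Its guide stood at 557, 955, 536 and 791 CPM in wild type, 643, 1021, 583 and 868 CPM in double AEDH and 1023, 1109, 571 and 896 CPM in ebax-1(null). The other groups held 929, 1023, 1159.6 and 678 CPM (ebax-1(null) with double AEDH), 583, 768, 579 and 919 CPM (Y47(mir-243bs_del)) and 704, 792, 706 and 1127 CPM (Y47(mir-243bs_del) with double AEDH). Under TMM scaling no comparison of genotypes in this experiment called either arm of mir-49, and with spike-in scaling the guide was called in ebax-1(null) against wild type (1.11, edgeR adjusted p = 0.0133). On the spike-in scale the median of all arms was 0.75 there, and edgeR called 107 of 226 arms higher and 0 lower. In same-numbered libraries the mir-49 guide was higher in ebax-1(null) than in wild type in 4 of 4 pairs, by 0.09 to 0.88. Within double AEDH it was higher with the ebax-1 allele in 3 of 4 pairs, with differences from -0.36 to 0.99. Numbers do not pair the libraries in either comparison. The library that was highest in mir-49_3p was also the highest in lin-4_5p in 6 of 6 groups, and the lowest was the same in 4 of 6. In wild type, lin-4_5p stood at 1942, 4173, 2065 and 2783 CPM, and in ebax-1(null) at 5332, 6091, 2503 and 4147 CPM. lin-4_5p itself was 0.70 higher in ebax-1(null) than in wild type (edgeR adjusted p = 0.0307), and its part in the values of mir-49 was not tested.

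The star of mir-49 did not follow its guide over these libraries. In wild type it stood at 36.7, 28.6, 40.9 and 30.1 CPM, so the star share was 6.18, 2.91, 7.09 and 3.67%. In ebax-1(null) the star stood at 29.7, 26.2, 41.8 and 22.8 CPM and the share was 2.82, 2.31, 6.82 and 2.48%. Libraries 1 and 3 had the higher shares in wild type, double AEDH and both Y47 genotypes. In ebax-1(null) only library 3 was high, and in ebax-1(null) with double AEDH only library 4, at 7.18% against 2.77 to 3.58%. The genotype difference of the mir-49 ratio was small beside this spread, for example -0.54 for ebax-1(null) against wild type (limma adjusted p = 0.529).

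Of the 126 values tested over both guides, both stars and both ratios in 21 comparisons, 19 passed the threshold without the replicate block. The share of all arms called ran from 0% (Y47(mir-243bs_del) against wild type) to 81.9% (wild-type embryo against young adult). For the ratios of all hairpins it ran from 0 to 60.2% in the same comparisons. The count of 19 is therefore no measure of how far the members stand out. The genotype calls on mir-49 all concerned its star or its ratio, in embryos or L4 larvae. Those against wild type were higher in the AEDH genotype, and those between the single mutants were higher in alg-2(AEDH). Of those 19, the genotype calls on mir-83 all concerned its star or its ratio in young adults of experiment 2.

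mir-34, the partner of mir-83 in gonad migration, was measured through mir-34_5p*, which despite its mark is the more abundant arm, and mir-34_3p. Like mir-83 it was lower in embryos. mir-34_5p* stood at 318 ± 76.4 CPM in wild-type young adults and at 28.8 ± 34.7 CPM in embryos of experiment 1 (log2 -3.13, edgeR adjusted p = 0.000286). The embryo mean rests on replicate 2, at 80.7 CPM, which is the library with the excess of lin-4_5p. In ebax-1(null) mir-34_5p* rose to 663 ± 177 CPM from 247 ± 91.7 CPM in wild type (1.41, edgeR adjusted p = 0.000869), and mir-34_3p did not pass the test (0.00, edgeR adjusted p = 0.994). Unlike mir-83_5p*, mir-34_5p* also rose with the ebax-1 allele within double AEDH (1.12, edgeR adjusted p = 0.0076), and double AEDH within ebax-1(null) made a difference of -0.10 (edgeR adjusted p = 0.896).

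As a description of the whole series, each member arm was compared with arms of other hairpins, out of 173 averaging at least 10 CPM. The measure was the Pearson correlation of log2(mean CPM + 1) over the 15 group means. These points share libraries and depth, and stages dominate them. mir-49_3p was most like mir-4813_5p (r = 0.97), mir-2_5p* (0.97) and mir-74_3p (0.96). mir-49_5p* was most like mir-231_5p* (0.99), mir-2_5p* (0.98) and mir-54_5p* (0.98). For mir-83_3p the nearest arms were mir-63_3p (0.97), mir-248_3p (0.97) and mir-71_3p* (0.96). mir-83_5p* had no close match, with mir-1_3p at 0.70, mir-228_5p at 0.67 and mir-1820_5p at 0.65. Between the members, the guides stood at r = -0.92, the arms of mir-49 at 0.95 and the arms of mir-83 at 0.03.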

How the data were processed

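For each miRNA arm the deposited table gives an estimated count of reads, with no normalization by the authors. The submitters' processing notes name DESeq2, HTSeq 0.13.5, SAMtools 1.13, Bowtie2 2.4.4 and cutadapt 3.4, without the settings used for counting. Adapters were ligated to the RNA and the products sized on gels, per the labels' protocols. Arm positions are from the deposited annotation, MirGeneDB 2.0 on ce11 per the file headers, and neighbouring genes from the WBcel235 annotation (Ensembl 115). No mature sequence was available here, so none is printed and no list by shared seed was made.

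Of the values, 908 (5.67%) ended in 0.5, 12 of the members' 232 among them, and were rounded. The 10 spike-in RNAs and 5 summary categories stayed out of library sizes and tests; reads outside annotated features were 11.9 to 44.6% per library. Spike-ins held 608617 to 3114232 counts in experiments 1 and 2 and 16 to 48 in experiment 3, where no spike-in scaling was made. Replicates never agreed within sampling noise: the smallest chi-square of any pair, divided by its degrees of freedom, was 122.

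Arm counts went into the quasi-likelihood test of edgeR 4.0.16 in R 4.3.3, with TMM scaling and filterByExpr at a minimum count of 10. Genotypes in experiment 1 were fitted per stage, and stages, experiment 2 and experiment 3 with all their groups. All 4 member arms passed the filter in every fit. The star of a hairpin was the arm marked by the annotation in 132 hairpins and, in the other 6, the arm with fewer reads in wild type. Log2 ratios of star to guide, with 0.5 added to each count, were tested with limma 3.58.1 for hairpins whose arms both averaged 10 counts or more. Adjustment was Benjamini-Hochberg over all arms or hairpins, with a threshold of 0.05. Alternatives were DESeq2 1.42.0, other scalings, no filter, a pseudocount of 5, a mean count of at least 100, the replicate block and leaving out each library. Tests were tried on simulated data first. Members and lists were chosen by a rule on names with earlier results of these data known. The text gives all 4 member arms, and the 3 most like arms of each among those with a mean of at least 10 CPM.

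Same-numbered libraries, whose numbers come from the labels, were checked by the correlation of their deviations from group means. Every pair exceeded 0.1 between double AEDH and wild type in young adults (0.70 to 0.83), L4 larvae (0.47 to 0.77) and embryos (0.69 to 0.93) of experiment 1 and in experiment 2 (0.54 to 0.79). This also held in the comparisons with Y47(mir-243bs_del), of alg-1(AEDH) with wild type (0.32 to 0.78) and of wild-type L4 larvae with young adults (0.11 to 0.15). It did not hold in the remaining comparisons.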

Additional observations from a re-analysis of the deposited data

Results flagged for a closer look

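In groups of 4 libraries, 78 sets of values were examined for a library far from its group, and 6 had one, where the gap to the nearest library exceeded 0.829 of the range. Chance alone flags about 1 in 20 such groups. In double AEDH young adults of experiment 1, replicate 1 was far above the others for mir-49_5p*, at 203 CPM, and for the star share of mir-49, at 17.8%. This is the library with 59386 CPM of mir-35_3p, and the part of that content was not tested. In wild-type young adults of experiment 1, replicate 4 had the lowest star share of mir-49, at 5.78%, a small distance in absolute terms below the other 3. In wild-type young adults of experiment 2, replicate 2 was highest in mir-83_3p, at 142 CPM. In ebax-1(null), replicate 3 was highest in the star share of mir-49, at 6.82%. In ebax-1(null) with double AEDH, replicate 4 was lowest in mir-83_5p*, at 13.9 CPM, and without it the fall within ebax-1(null) kept its direction and its call.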

How the results depend on the processing

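All values are log2 differences, with edgeR (arms) or limma (ratios) adjusted p unless another tool is named. Over the alternatives other than leaving out a library, 560 values kept their direction and side of the threshold, 17 passed it newly, 7 no longer passed and 34, none of them past the threshold before or after, changed sign. With 1 library left out these numbers were 1051, 4, 20 and 125. The calls on the mir-49 star and ratio in double AEDH embryos and in alg-2(AEDH), and on mir-83_5p* in ebax-1(null), held under every alternative run and every library left out. The cause of the changes below was not tested. With spike-in scaling the median over all arms also shifted, from 0.08 to 0.58 between L4 and young adult, from -0.15 to 0.24 between embryo and L4, from -0.02 to -0.24 in double AEDH embryos, from 0.05 to 0.23 in double AEDH young adults, from 0.01 to -0.22 for double AEDH within ebax-1(null) and from -0.04 to 0.47 for ebax-1(null) within double AEDH. Total counts gave a median of -0.41 between embryo and young adult. Counts of arms called by edgeR and DESeq2 were 3 and 16 in double AEDH young adults of experiment 1, 11 and 21 in L4 larvae, 1 and 4 in alg-1(AEDH), 8 and 24 in alg-2(AEDH) and 4 and 7 between the single mutants. Depth limits mir-83_5p* most, with 131 counts in its lowest library.

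Values that passed newly were mir-49_3p between wild-type L4 and young adult with DESeq2 (0.34, adjusted p = 0.0151), DESeq2 size factors in edgeR (0.34, adjusted p = 0.0405), total counts (0.43, adjusted p = 0.0144) and spike-ins (0.81, adjusted p = 0.0265), and mir-49_5p* there with spike-ins (1.14, adjusted p = 0.0458). Spike-ins also raised mir-49_3p (1.11, adjusted p = 0.0133) and mir-83_3p (1.02, adjusted p = 0.011) in ebax-1(null) past it. On that scale 107 of 226 arms were called higher there and 0 lower. mir-83_3p in alg-2(AEDH) passed with DESeq2 (-0.47, adjusted p = 0.0186). With a minimum mean count of 100, limma called the mir-49 ratio in double AEDH L4 larvae (0.74, adjusted p = 0.0276), the mir-83 ratio in ebax-1(null) (0.55, adjusted p = 0.0327) and the mir-83 ratio for double AEDH within Y47(mir-243bs_del) (-0.51, adjusted p = 0.0405).

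With the replicate block, where numbers pair the libraries, the mir-49 ratio in L4 larvae (0.74, adjusted p = 0.0259), the mir-83 ratio within Y47(mir-243bs_del) (-0.51, adjusted p = 0.0365), and mir-83_5p* (-0.56, adjusted p = 0.0383) and the mir-83 ratio (-0.77, adjusted p = 0.0252) in double AEDH young adults of experiment 1 passed. Where numbers do not pair them, the block gave mir-83_3p in alg-2(AEDH) (-0.50, adjusted p = 0.035) and the mir-83 ratio in ebax-1(null) (0.55, adjusted p = 0.0244), and raised the arms called in alg-2(AEDH) from 8 to 25 higher and 4 lower and between the single mutants from 4 to 14 higher and 2 lower. Same-numbered libraries of ebax-1(null) with and without double AEDH correlated from -0.62 to -0.25. The block changed no other call on a member.

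Calls lost with spike-ins were mir-83_3p (-0.70, adjusted p = 0.0615) and mir-83_5p* (-0.66, adjusted p = 0.322) between embryo and young adult, mir-49_5p* in double AEDH L4 larvae (0.98, adjusted p = 0.0992), and mir-83_5p* for double AEDH within ebax-1(null) (-0.90, adjusted p = 0.102) and within Y47(mir-243bs_del) (-0.79, adjusted p = 0.29). With total counts, mir-83_5p* within Y47(mir-243bs_del) (-0.73, adjusted p = 0.0644) and mir-49_5p* between the single mutants (0.79, adjusted p = 0.141) were lost.

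Changes of sign concerned values near 0 or shifted by the spike-ins. For mir-49_5p* in Y47(mir-243bs_del), DESeq2 gave 0.0064, its size factors 0.0065, no filter 0.0089 and total counts 0.034. For mir-49_3p with the Y47 allele within double AEDH the same settings gave 0.033, 0.033, 0.039 and 0.10, and the block 0.015. For mir-83_5p* with ebax-1(null) within double AEDH, DESeq2 gave 0.012, size factors 0.011, total counts 0.0091 and spike-ins 0.53. For mir-49_3p between the single mutants, DESeq2 gave 0.022, size factors 0.022 and no filter 0.0042. A pseudocount of 5 gave -0.00064 for the mir-49 ratio in Y47(mir-243bs_del). For the interaction of ebax-1(null) with double AEDH in mir-49_5p*, no filter gave -0.0033, total counts -0.0026 and spike-ins -0.17. Total counts gave -0.0046 for the L4 minus young adult effect on mir-83_3p, 0.0058 for mir-49_3p in Y47(mir-243bs_del) and 0.015 for mir-49_5p* with the Y47 allele within double AEDH. Spike-ins gave 0.29 for mir-83_3p between L4 and young adult, and in double AEDH embryos -0.13 for mir-49_3p, -0.16 for mir-83_3p and -0.16 for mir-83_5p*. They gave -0.45 for the embryo minus young adult effect on mir-49_5p*, -0.22 for the L4 minus young adult effect on mir-83_3p and -0.14 for the embryo minus L4 effect on mir-83_5p*. In experiment 2 they gave 0.48 for mir-49_5p* in ebax-1(null), -0.16 for mir-49_3p with double AEDH within ebax-1(null), and for ebax-1(null) within double AEDH 0.31 for mir-49_5p* and 0.37 for mir-83_3p.

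With each library left out in turn, calls on a member changed within these ranges: in L4 larvae 0.93 to 1.03 for mir-49_5p* and 0.71 to 0.78 for its ratio, for the embryo minus young adult effect 0.11 to 0.92 for mir-49_5p* and 0.49 to 0.99 for its ratio, between the single mutants 0.69 to 1.01 and 0.74 to 0.93, for the mir-83 ratio 0.48 to 0.62 in ebax-1(null) and -0.66 to -0.45 for double AEDH within it, and -0.88 to -0.62 for mir-83_5p* within Y47(mir-243bs_del). The mir-49 ratio in L4 larvae passed without replicate 3 of double AEDH (adjusted p = 0.0477), and the mir-83 ratio in ebax-1(null) without its replicate 4 (0.62, adjusted p = 0.0496). Uncalled values crossed 0 as follows. For the mir-49 ratio the ranges were -0.083 to 0.42 (L4 minus young adult effect), -0.0031 to 0.46 (double AEDH, experiment 2), -0.24 to 0.21 (Y47 against wild type), -0.046 to 0.64 (double AEDH within ebax-1(null)), -0.022 to 0.38 (within Y47), -0.32 to 0.10 (Y47 within double AEDH), and -0.28 to 0.41 and -0.32 to 0.15 (interactions with ebax-1(null) and Y47). For the mir-83 ratio they were -0.075 to 0.50 (embryo against young adult), -0.21 to 0.32 (double AEDH embryos) and -0.067 to 0.15 (single mutants). For mir-49_3p they were -0.15 to 0.021 (L4 minus young adult effect), -0.021 to 0.21 (double AEDH, experiment 2), -0.13 to 0.082 (Y47), -0.064 to 0.17 (double AEDH within ebax-1(null)), -0.072 to 0.15 (Y47 within double AEDH), -0.15 to 0.14 and -0.13 to 0.17 (interactions), -0.10 to 0.0064 (alg-1(AEDH)), -0.10 to 0.080 (alg-2(AEDH)) and -0.052 to 0.090 (single mutants). For mir-49_5p* they were -0.38 to 0.43 (L4 minus young adult effect), -0.18 to 0.15 (Y47), -0.39 to 0.0089 (ebax-1(null) within double AEDH), -0.16 to 0.077 (Y47 within double AEDH), and -0.23 to 0.30 and -0.22 to 0.13 (interactions). For mir-83_3p they were -0.0034 to 0.36 (double AEDH young adults, experiment 1), -0.22 to 0.066 (embryo minus young adult effect) and -0.12 to 0.18 (L4 minus young adult effect). For mir-83_5p* they were -0.21 to 0.11 (double AEDH L4 larvae), -0.085 to 0.29 (embryos), -0.068 to 0.34 (embryo minus L4 effect), -0.034 to 0.19 (double AEDH, experiment 2), -0.040 to 0.21 (ebax-1(null) within double AEDH), -0.0080 to 0.23 (alg-1(AEDH)) and -0.14 to 0.028 (alg-2(AEDH)).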
